A study of Mus musculus with 8 samples.

Results

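The genes described here were lower in mouse embryonic fibroblasts (MEFs) expressing *EZHIP* and higher in MEFs expressing the histone mutant H3.3 K27M, each against the same parental cells. A gene was taken where the log2 of its mean normalized value plus 1 was at least 1 below control in EZHIP cells and at least 1 above control in K27M cells. Of the 875 genes in the table, 56 met both limits. The rule then dropped 19 by their symbols, among them the antiviral effectors *Rsad2*, *Irf7*, *Mx1* and *Mx2*, several *Oas* genes and the matrix genes *Dcn* and *Col14a1*, and 37 remained. These 37 are called the members.

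RNA was sequenced from MEFs, connective tissue cells grown out of an embryo, after depletion of ribosomal RNA. The control was the parental line, in which loxP sites flank exons of *EED*. EZHIP and K27M cells were MEFs that stably expressed human EZHIP or H3.3 K27M from an EF1a-promoter lentivirus and had been selected with puromycin, and the samples analysed here include no empty-vector line. EED-null cells carried the deletion of *EED* made by a hit-and-run Cre lentivirus and came from 1 clone. Each of the 4 groups had 2 libraries, and the labels name 1 line for each group, so a line and its treatment cannot be told apart. The genes used here have no row for *Eed*, so the deletion could not be checked in these values. The labels do not say whether the libraries of a group were separate cultures, so p-values measure the spread between these libraries, which may be technical.

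Polycomb repressive complex 2 (PRC2) places methyl groups on lysine 27 of histone H3 through its EZH2 subunit, and EED is the core subunit that reads the mark and activates the enzyme. Both EZHIP and the K27M histone bind the active site of EZH2 and inhibit it, and loss of EED removes the complex. Interferon-induced genes are switched on by STAT and IRF factors that bind an interferon-stimulated response element (ISRE) near the gene start, and their products sense viral RNA, present antigen or attack intracellular pathogens. Most cell types, fibroblasts included, can mount this response.

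Although named antiviral genes had been dropped, the members were not free of interferon genes. Of the 37 members, 15 were on a broad list of interferon-response genes, which were *Trim30a*, *Trim25*, *Ifih1*, *Rtp4*, *Slfn2*, *Slfn8*, *Gbp3*, *Gbp5*, *Igtp*, *Iigp1*, *Tgtp2*, *H2-Q6*, *H2-Q7*, *H2-Q8* and *Icam1*. *Mpa2l* was not on the list, but RefSeq gives this symbol as an older name of *Gbp6*, a guanylate-binding protein, and the table holds a separate row for *Gbp6*. The other 22 members included *Mpa2l* and are called the members off the list. The list and the members were chosen with earlier results of these data known.

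The promoters of the listed members carried the ISRE letters more often than those of the members off the list. RefSeq promoters, from 250 bases before to 50 bases after the gene start in GRCm38.p6, were found for 27 of the 37 members. The core of the element, searched on both strands as GAAA, any 2 bases and GAAA again, occurred in 7 of the 12 listed members with a promoter, and in *Dhrs3* alone of 15 members off the list. For comparison, 3.99% of all genes with a promoter in the RefSeq table and 7.75% of the genes of the expression table held a match. A match describes these letters only. Elements that depart from them are not counted, and no binding was measured. To show the element in place, the stretch from 100 bases before to 20 bases after the start is printed for 5 listed members whose match lies in it, with the match in capitals. Overlapping matches in *Gbp3* run together. The 5 stretches lie at chr7:104465174-104465293 on the minus strand, chr11:83020791-83020910 on the minus strand, chr11:58199456-58199575 on the plus strand, chr3:142559944-142560063 on the plus strand and chr11:49064193-49064312 on the minus strand.
Trim30a: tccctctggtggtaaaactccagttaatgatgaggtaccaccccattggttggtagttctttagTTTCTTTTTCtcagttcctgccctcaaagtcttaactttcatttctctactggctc
Slfn8: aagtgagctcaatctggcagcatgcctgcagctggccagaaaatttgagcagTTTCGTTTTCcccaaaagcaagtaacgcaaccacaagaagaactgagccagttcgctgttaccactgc
Igtp: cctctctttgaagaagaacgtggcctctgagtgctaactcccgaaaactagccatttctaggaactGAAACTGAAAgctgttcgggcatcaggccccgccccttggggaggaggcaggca
Gbp3: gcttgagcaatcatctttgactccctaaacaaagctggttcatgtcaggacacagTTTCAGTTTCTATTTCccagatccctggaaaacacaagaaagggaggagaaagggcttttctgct
Tgtp2: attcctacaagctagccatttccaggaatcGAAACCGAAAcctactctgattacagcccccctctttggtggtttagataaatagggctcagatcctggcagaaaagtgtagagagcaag

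In contrast, the same stretch of 3 members off the list with large differences between K27M and EZHIP cells held no match. They lie at chr6:116673817-116673936 on the minus strand, chr10:53750890-53751009 on the minus strand and chr5:150259830-150259949 on the plus strand, and *Fam184a* shows the densest CpG dinucleotides of any member with a promoter.
Rassf4: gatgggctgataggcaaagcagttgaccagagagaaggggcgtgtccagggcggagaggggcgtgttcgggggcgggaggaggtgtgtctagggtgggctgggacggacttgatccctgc
Fam184a: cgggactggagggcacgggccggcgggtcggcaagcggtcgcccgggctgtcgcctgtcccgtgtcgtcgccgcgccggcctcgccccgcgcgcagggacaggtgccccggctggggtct
Fry: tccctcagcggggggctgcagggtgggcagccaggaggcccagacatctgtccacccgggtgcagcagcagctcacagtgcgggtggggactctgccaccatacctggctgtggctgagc

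The ratio of observed to expected CpG dinucleotides was taken per gene, at the promoter with the highest ratio where a gene had several. Its median was 0.363 over the listed members and 0.656 over the members off the list. Over the genes of the table the median was 0.658, and over all genes with a RefSeq promoter 0.415. The ratio ranged from 0 in *Trim30a* to 0.819 in *Ifih1* on the list, and from 0.207 in *Car9* to 0.958 in *Fam184a* off it.

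**Figure D1:**
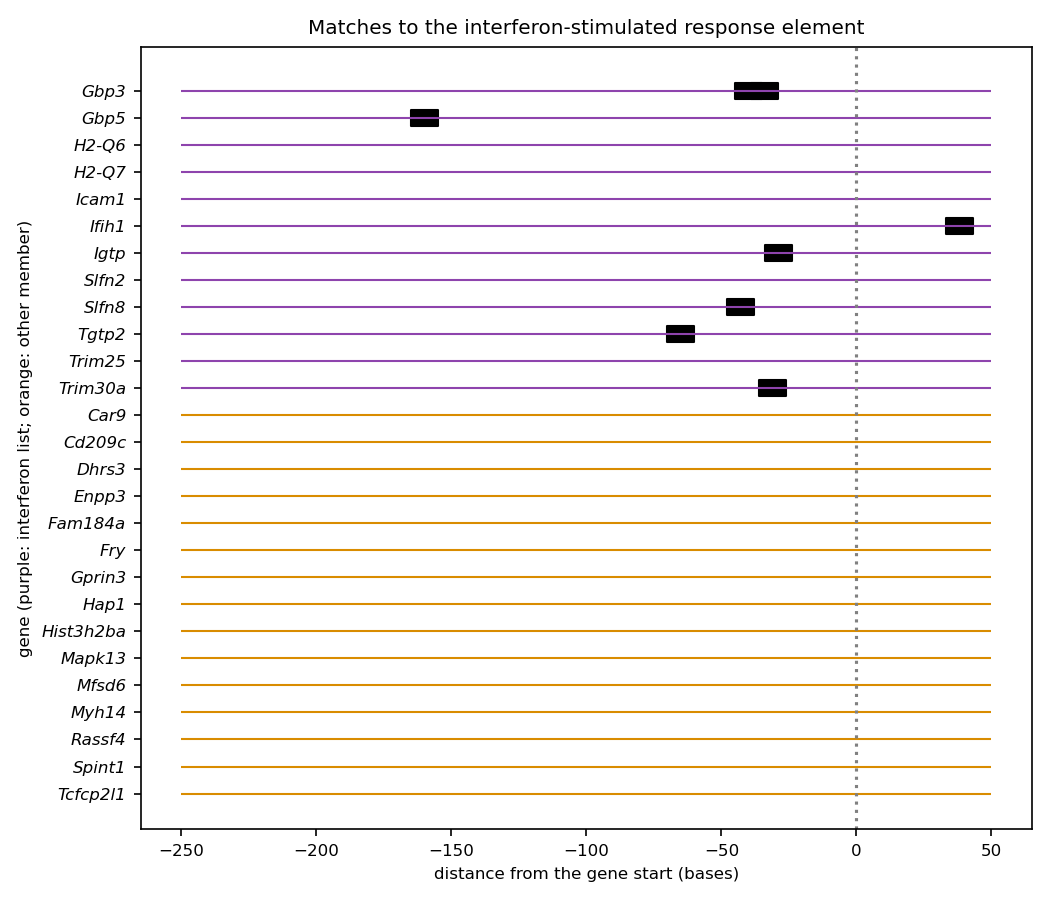
Position of matches to the ISRE core (black boxes, either strand) between 250 bases before and 50 bases after the gene start, shown for the first RefSeq start of each of the 27 members with a promoter. Purple lines are members on the interferon list, orange lines the other members; 7 purple lines and no orange line carry a box, while the match of *Dhrs3* lies at its later starts only.

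The deposited values are reads per gene estimated with RSEM, divided by 1 size factor per library, and are not scaled by gene length. From the step that 1 read is worth in each library, members held between 2190 and 30257 estimated reads per library. That was 0.829% to 7.71% of the reads on the table, with the lowest share in an EZHIP library and the highest in a K27M library. In this unit 1 read was worth 0.738 to 1.39, depending on the library. In EZHIP cells *Rassf4*, *Icam1*, *Slfn2*, *Bcl6b*, *Fry*, *Auts2* and *Gbp5* rested on 1 to 9 reads over both libraries. The median coefficient of variation over the members was 6.63% in K27M, 9.54% in control, 10.7% in EED-null and 20.1% in EZHIP cells, and since the members were chosen as high in K27M and low in EZHIP cells, this order goes with their read numbers. Over the table the spread between replicates beyond counting noise was widest in K27M cells (chi-square per gene 4.85, against 1.57 in control).

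Over the members, the median log2 difference from control was -1.89 in EZHIP cells and 1.62 in K27M cells, against 1.16 and 0.59 over the whole table. Both EZHIP libraries lay below both control libraries for all 37 members (43.4% of the table), and above for none (56.6% of the table). Both K27M libraries lay above both control libraries for all 37 (57.4% of the table), and below for none (33.7% of the table). These 2 contrasts chose the members, so they are given as descriptions. Calls by limma in them are printed only for the interferon list further below, and they are no test of the members. EED-null libraries took no part in the choice, but their comparison with control uses the same control libraries.

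**Figure D2:**
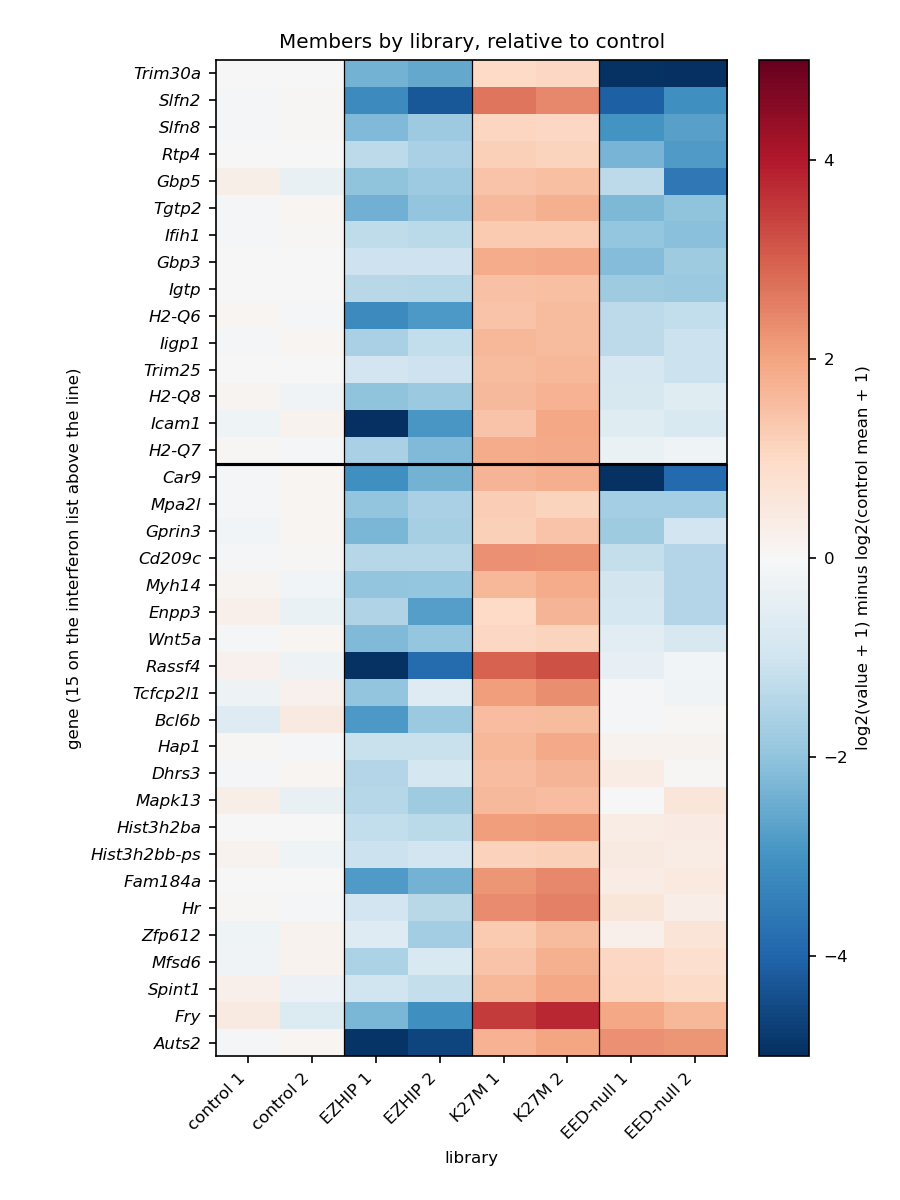
Log2(value + 1) of each member in each of the 8 libraries, minus the log2 of the control mean plus 1, with red above and blue below control and the colour scale ending at 5 in each direction. All EZHIP columns are blue and all K27M columns red by the rule, while the EED-null columns are blue for the 15 interferon-list genes above the black line and of mixed colour for the 22 genes below it.

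EED-null cells did not place the members in 1 direction. limma, with a spread shared by all 8 libraries and Benjamini-Hochberg adjustment over the 875 genes, called 16 of the 37 members lower than control (43.2%; 25.1% of the table) and 3 higher (8.11%; 39.9% of the table). The call required an adjusted p under 0.05 together with a 2-fold or greater change. Of the 15 listed members, 11 were called lower (73.3%) and 0 higher, and all 15 had a negative change. Of the 22 members off the list, 5 were called lower (22.7%), namely *Car9*, *Mpa2l*, *Gprin3*, *Cd209c* and *Myh14*. This share was close to the 25.1% of the table. Another 3 were called higher (13.6%, against 39.9% of the table), namely *Auts2*, *Fry* and *Spint1*, while 14 were not called. The median log2 change in EED-null cells was -1.98 over the listed members, 0.21 over the members off the list and 0.40 over the table. The scaling matters for small changes, since rescaling the libraries by the median of ratios over the table lowered the EED-null changes by 0.39 at the table's median and gave 20 members lower and 2 higher. The ratios came from genes selected on EZHIP, so this scale is not known to be neutral. With 2 libraries a group, exact permutation of a single gene's values reaches no two-sided p below 0.333, and each call therefore leans on the variance that limma pools over the table.

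By single libraries, both EED-null libraries lay below both control libraries for 22 members (59.5%; 38.6% of the table), including all 15 on the list. Both lay above for 10 members (53.7% of the table), none of them on the list, and the remaining 5 overlapped with control. EED-null above and EZHIP below control in both libraries held for these 10 members (27%) and for 4.23% of the table, or 9.74% of the 380 table genes with EZHIP below control. The EED-null libraries lay below both K27M libraries for 36 members (45.5% of the table). The exception was *Auts2*, which was above K27M in both (44.2% of the table). Against EZHIP they were above for 22 members (46.6% of the table), below for 7 (39.8% of the table) and overlapping for 8.

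**Figure D3:**
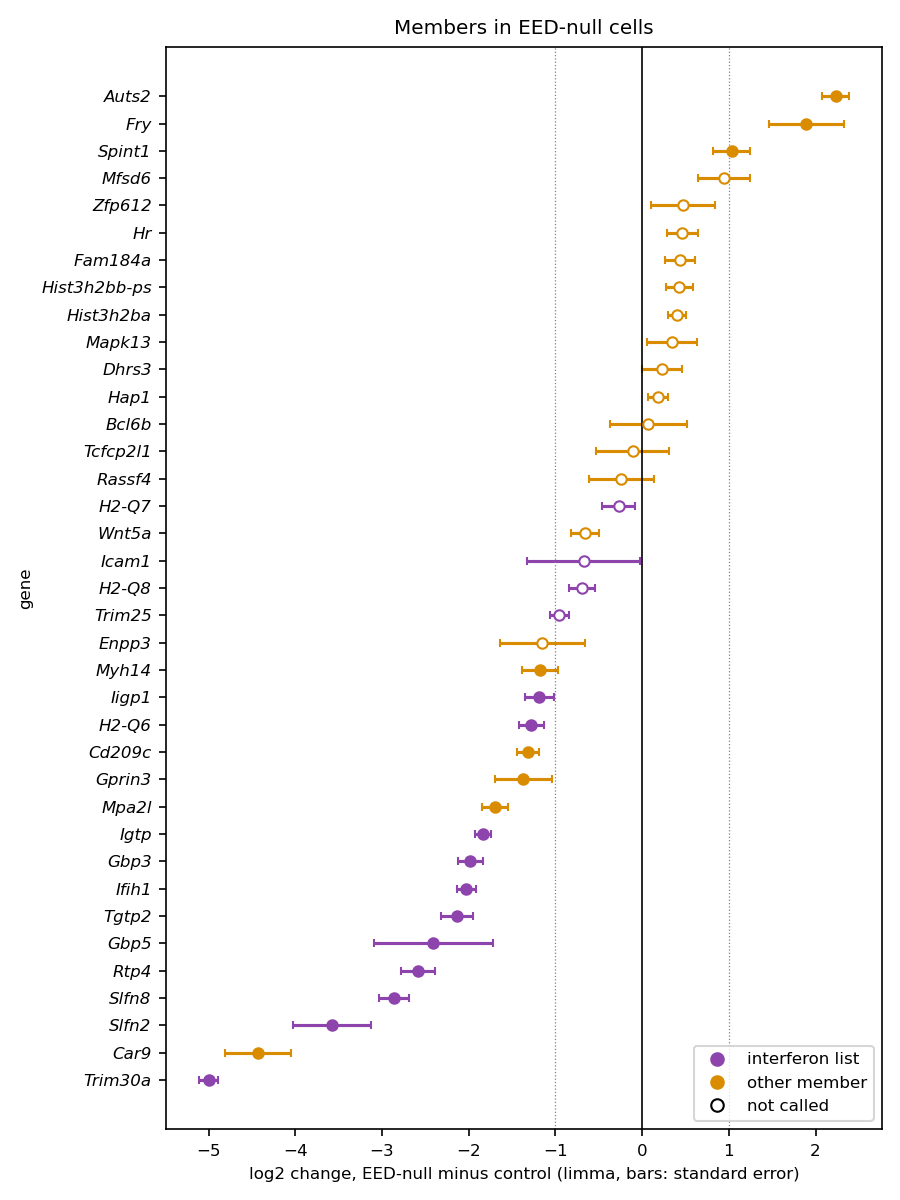
Log2 change of each member in EED-null against control cells from limma, with its standard error as bars (2 libraries per group) and dotted lines at a 2-fold change. Filled points were called; the 11 called listed genes (purple) all lie on the left, while the called genes off the list (orange) lie on both sides, from *Car9* at -4.43 to *Auts2* at 2.23.

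Among sensors and ubiquitin ligases of the antiviral response, *Trim30a* fell most. It stood at 80.3 and 69.1 in the EZHIP libraries, 416 and 417 in control, 12.5 and 11.6 in EED-null and 825 and 853 in K27M, in normalized values. The EED-null libraries were the lowest, below both EZHIP libraries, and no groups overlapped. Its log2 change in EED-null against control cells was -4.999 (standard error 0.11, adjusted p = 3.74e-07 from limma). *Ifih1*, which encodes the double-stranded RNA sensor MDA5, was at 276 and 267 in the EZHIP libraries, 645 and 699 in control, 173 and 155 in EED-null and 1683 and 1665 in K27M, with a log2 change in EED-null cells of -2.03 (standard error 0.11, adjusted p = 9.52e-06). *Trim25*, a ligase that acts on the sensor RIG-I, was at 183 and 174 in the EZHIP libraries, 369 and 351 in control, 198 and 172 in EED-null and 1077 and 1136 in K27M. It sat just inside the limit for EZHIP, and its EED-null change of -0.96 stayed short of 2-fold, although its adjusted p was 2.99e-04 from limma. *Rtp4*, an interferon-induced protein first known as a chaperone of receptors, was at 137 and 108 in the EZHIP libraries, 333 and 345 in control, 66.5 and 46.5 in EED-null and 776 and 726 in K27M, and fell by 2.58 on the log2 scale in EED-null cells (adjusted p = 4.55e-05 from limma).

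The GTPases of this response, which act on the vacuoles of intracellular pathogens, were the most numerous of the listed members. The immunity-related GTPase *Igtp* was at 164 and 162 in the EZHIP libraries, 435 and 434 in control, 125 and 118 in EED-null and 1208 and 1221 in K27M. Its *Tgtp2* relative was at 51.7 and 70.8 in the EZHIP libraries, 259.7 and 295 in control, 57.5 and 67.2 in EED-null and 845 and 939.8 in K27M. *Iigp1* was at 130.2 and 173 in the EZHIP libraries, 383 and 431 in control, 165 and 192 in EED-null and 1279 and 1211 in K27M. EED-null cells showed a called decrease of each, with log2 changes of -1.83, -2.14 and -1.19. The EED-null and EZHIP libraries overlapped for *Tgtp2* and *Iigp1*, whereas *Igtp* was lower in EED-null. Of the guanylate-binding proteins, *Gbp3* was at 157 and 161 in the EZHIP libraries, 335 and 321 in control, 72.1 and 94.0 in EED-null and 1202 and 1224 in K27M. *Mpa2l* was at 69.8 and 87.8 in the EZHIP libraries, 255 and 292 in control, 83.2 and 83.9 in EED-null and 648 and 588 in K27M. *Gbp5* was low throughout, at 4.73 and 5.70 in the EZHIP libraries, 27.7 and 17.0 in control, 8.32 and 0.969 in EED-null and 61.2 and 64.7 in K27M. *Gbp3* and *Mpa2l* were called lower in EED-null cells, with log2 changes of -1.98 and -1.70 from limma. *Gbp5* was called at -2.41 (standard error 0.69, adjusted p = 0.0166), but without control replicate 1 its change was -2.07 with an adjusted p of 0.0747 from limma, and 1 EED-null library held about 1 read. Reads of such closely related GTPases can be split between copies, so their separate levels are uncertain.

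Both Schlafen genes, interferon-induced regulators of growth and translation in immune cells, lie 44.3 kb apart on chromosome 11. No other gene of the table lies between them. *Slfn2* was at 3.55 and 1.14 in the EZHIP libraries, 37.6 and 42.1 in control, 1.39 and 3.88 in EED-null and 259 and 217 in K27M. It nearly disappeared from EZHIP and EED-null cells, which overlapped, and its pooled reads were 102 times higher in K27M than in EZHIP cells (95% exact interval 39.6 to 376, counting error only). *Slfn8* was at 58.0 and 77.5 in the EZHIP libraries, 259 and 289 in control, 33.3 and 40.7 in EED-null and 583 and 565 in K27M, and EED-null was the lowest group. In EED-null cells their log2 changes were -3.58 and -2.86 (adjusted p = 4.20e-04 and 1.79e-05 from limma).

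The class Ib histocompatibility genes of the Q region were lowest in EZHIP cells, unlike *Igtp* and *Gbp3*, which were lowest in EED-null cells. *H2-Q6* was at 61.2 and 75.5 in the EZHIP libraries, 604 and 528 in control, 227 and 239 in EED-null and 1510.0 and 1684 in K27M. *H2-Q8* was at 62.2 and 69.2 in the EZHIP libraries, 278 and 224 in control, 144 and 164 in EED-null and 768 and 835 in K27M. *H2-Q7* was at 227 and 153 in the EZHIP libraries, 734 and 681 in control, 569.6 and 603 in EED-null and 2547 and 2614 in K27M. In all 3 the EED-null libraries lay below control and above EZHIP. The log2 change in EED-null cells was -1.28 (standard error 0.15, adjusted p = 2.58e-04) for *H2-Q6* from limma, -0.70 for *H2-Q8* and -0.27 for *H2-Q7*, and only the first was called. They are near-identical copies, so their reads may be split between them. *Icam1*, an adhesion receptor for leukocytes that inflammatory signals induce, was at 0 and 3.42 in the EZHIP libraries, 27.7 and 36.2 in control, 20.6 and 18.4 in EED-null and 87.2 and 123 in K27M. The EZHIP libraries held 3 reads between them, and the EED-null change of -0.67 was not called (adjusted p = 0.365 from limma).

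Off the list, *Rassf4* showed the largest difference between the inhibitors. This gene, a Ras association domain protein, was at 0 and 1.14 in the EZHIP libraries, 34.9 and 24.4 in control, 22.2 and 27.1 in EED-null and 236 and 275 in K27M. EED-null overlapped with control, with a log2 change of -0.24. Pooled reads were 440 times higher in K27M than in EZHIP cells, but with 1 read in the EZHIP libraries the exact 95% counting interval ran from 78.7 to 17418.

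*Auts2* and *Fry* stood on opposite sides of control in EZHIP and EED-null cells. *Auts2*, which encodes a component of a variant Polycomb repressive complex 1, was at 3.55 and 4.56 in the EZHIP libraries, 124 and 144 in control, 649 and 617 in EED-null and 448 and 535 in K27M. Its EED-null libraries were the highest of all, and its log2 change against control was 2.23 (standard error 0.16, adjusted p = 2.95e-05) from limma. In EZHIP cells it held 7 reads over both libraries, and pooled reads were 155 times higher in EED-null than in EZHIP cells (95% exact interval 75.0 to 387, counting error only). *Fry*, a large scaffold that activates NDR kinases, was at 4.73 and 2.28 in the EZHIP libraries, 37.0 and 16.2 in control, 104 and 85.3 in EED-null and 307 and 379 in K27M. The groups did not overlap, and EED-null lay between control and K27M, with a log2 change of 1.90 (standard error 0.43, adjusted p = 0.00646) from limma. *Spint1*, a Kunitz-type inhibitor of cell-surface serine proteases, was at 49.7 and 43.3 in the EZHIP libraries, 119 and 81.2 in control, 212 and 193 in EED-null and 314 and 386 in K27M. It was called higher in EED-null cells by a narrow margin, at 1.03 (standard error 0.21, adjusted p = 0.00417) from limma, and the change was 0.76 without control replicate 2 and 0.96 without EED-null replicate 1, both short of 2-fold.

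**Figure D4:**
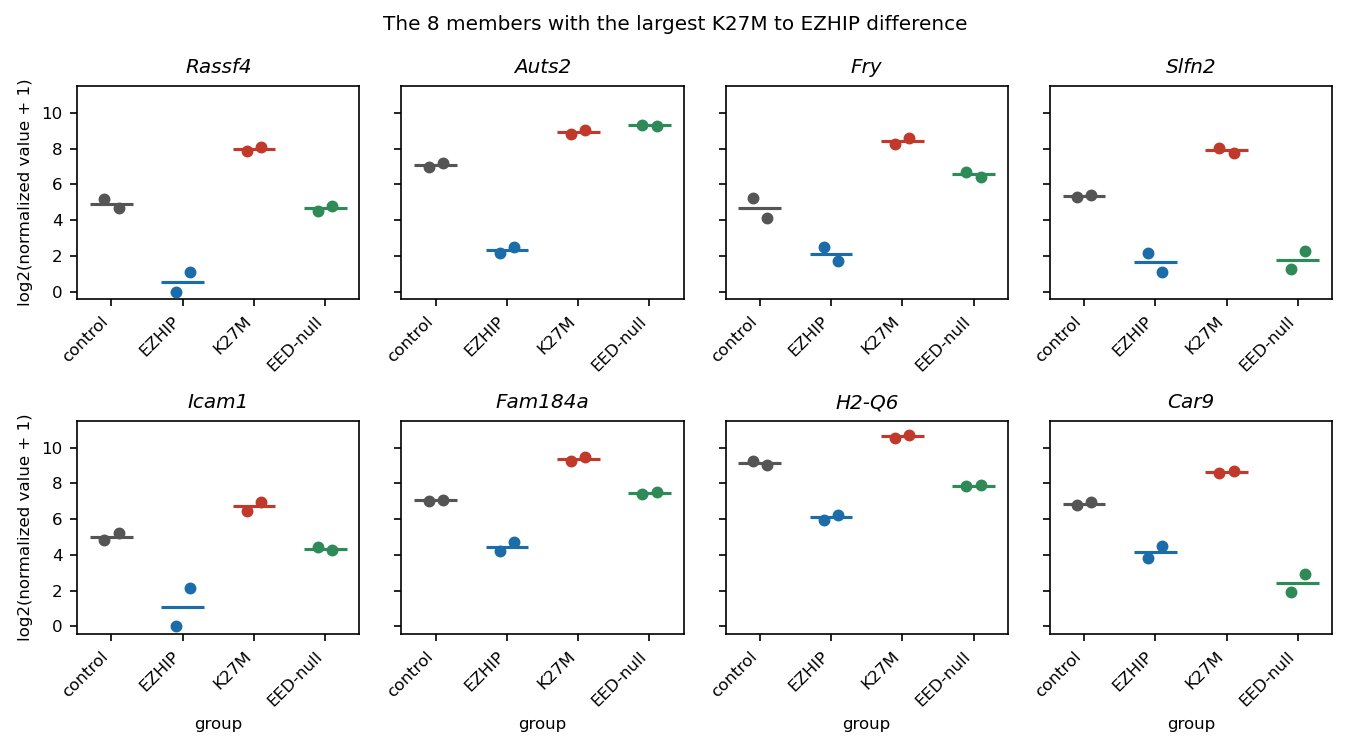
Log2(normalized value + 1) in the 4 groups for the 8 members with the largest difference between K27M and EZHIP cells; points are single libraries and bars the mean of 2. EZHIP is the lowest group and K27M the highest in 5 panels, while in *Slfn2* EED-null overlaps with EZHIP, in *Car9* EED-null lies below EZHIP and in *Auts2* EED-null lies above K27M.

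*Car9* moved with the listed genes although it was not one of them. It encodes carbonic anhydrase IX, a surface enzyme that hypoxia is known to induce, and was at 13.0 and 21.7 in the EZHIP libraries, 109 and 123 in control, 2.77 and 6.78 in EED-null and 377 and 412 in K27M. EED-null was the lowest group, with a log2 change of -4.43 (standard error 0.38, adjusted p = 7.16e-05) from limma and 9 reads over both libraries. *Gprin3*, *Cd209c* and *Myh14* also fell in EED-null cells. *Cd209c*, a C-type lectin of the DC-SIGN family, was at 86.5 and 86.6 in the EZHIP libraries, 225 and 240.3 in control, 102 and 84.2 in EED-null and 1145 and 1118 in K27M. *Myh14*, the heavy chain of a non-muscle myosin, was at 39.1 and 41.0 in the EZHIP libraries, 173 and 142 in control, 83.2 and 57.2 in EED-null and 498 and 577 in K27M. *Gprin3*, named for its part in neurite outgrowth, was at 16.6 and 26.2 in the EZHIP libraries, 77.0 and 90.8 in control, 23.6 and 42.6 in EED-null and 191 and 229 in K27M. The log2 changes in EED-null cells were -1.32, -1.18 and -1.37. The call of *Myh14* was lost without EED-null replicate 2 (-0.91) and that of *Gprin3* without EED-null replicate 1 (-0.96), because the changes fell short of 2-fold.

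The 14 members off the list that were not called in EED-null cells had log2 changes there between -1.15 and 0.95. *Enpp3*, an ectoenzyme that cleaves nucleotides, was at the low end with an adjusted p of 0.0674 from limma. *Wnt5a*, a ligand of non-canonical WNT signalling and the only member on the list of cytokines and growth factors, was at 54.4 and 67.3 in the EZHIP libraries, 239 and 278 in control, 179 and 148 in EED-null and 525 and 559.7 in K27M. Its EED-null value lay between EZHIP and control, with a log2 change of -0.66 and an adjusted p of 0.00892 from limma. *Fam184a* was at 17.8 and 25.1 in the EZHIP libraries, 130.4 and 133 in control, 172 and 186 in EED-null and 617 and 704 in K27M, with a log2 change of 0.44 in EED-null cells that was not called and was 0.046 after rescaling. *Hr*, the hairless corepressor, was at 81.7 and 60.4 in the EZHIP libraries, 166 and 149.8 in control, 239.8 and 199 in EED-null and 821 and 902 in K27M.

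Nearby histone genes on chromosome 11 shared this pattern. *Hist3h2ba*, which encodes a histone H2B, was at 118 and 106 in the EZHIP libraries, 282 and 268 in control, 360.4 and 366 in EED-null and 1181 and 1215 in K27M. The pseudogene *Hist3h2bb-ps*, annotated 4.52 kb away on the opposite strand, was at 84.6 and 93.3 in the EZHIP libraries, 206 and 155 in control, 249.5 and 233 in EED-null and 400.3 and 408 in K27M. Similar copies of H2B genes exist, so the split of reads between them is uncertain. The zinc finger gene *Zfp612* was at 20.1 and 9.12 in the EZHIP libraries, 27.7 and 36.9 in control, 38.8 and 51.4 in EED-null and 81.6 and 97.9 in K27M. EED-null lay above control in each of these 3 genes, by 0.40, 0.43 and 0.47 on the log2 scale, and none was called. After rescaling these changes were 0.0049, 0.035 and 0.083.

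For the remaining genes, the EED-null log2 changes were 0.95 in *Mfsd6* of the major facilitator superfamily, 0.35 in the p38 delta kinase gene *Mapk13*, 0.23 in the retinaldehyde reductase gene *Dhrs3* and 0.18 in *Hap1*, whose product binds huntingtin. They were 0.07 in *Bcl6b*, a repressor related to BCL6, and -0.11 in *Tcfcp2l1*, a transcription factor known from naive pluripotent cells. K27M values of these 6 genes were between 3.05 and 4.74 times those of control. *Mfsd6* had an adjusted p of 0.0245 from limma without reaching 2-fold, while the others had adjusted p-values of 0.197 or more.

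Most interferon-list genes of the table were lower in EED-null cells. The table held 52 genes of the list, 15 of them members. The list is not complete for this pathway, as it holds only *Oasl1* and *Oasl2* of the 19 genes dropped by symbol and leaves out *Rsad2*, *Irf7*, *Mx1*, *Mx2*, *Ifit3* and *Usp18*, which met both limits. limma called 50 lower in EZHIP cells (43.1% of the table) and 41 lower in EED-null cells (25.1% of the table). In K27M cells, 15 were called higher (41.4% of the table), of which 13 were members and the other 2 were *Oasl1* and *Oasl2*, which the rule dropped by symbol. The remaining members *Gbp5* and *Icam1* passed the limit by their means and were not called. Another 4 list genes were called lower in K27M cells (20% of the table). Of the 37 list genes that were not members, 30 were called lower in EED-null cells (25.1% of the table) and 1, *Ifitm1*, higher (39.9% of the table). The table was selected on EZHIP against control, and limma called 43.1% of it lower and 56% higher in EZHIP cells. Its EZHIP calls follow from that selection. The K27M calls of members reuse the values that chose them. Calls in EZHIP and K27M cells are thus descriptions and no test of the members. The rule takes any list gene that falls in EZHIP and rises in K27M cells unless its symbol is dropped. The difference in K27M cells between members and other list genes is therefore set by the rule.

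The limits of the rule passed through this pathway. Just inside the K27M limit were *Trim30a* and *Slfn8*, at 1.01 and 1.06 above control on the log2 scale, and just outside were *Ifi203* and *Irgm2*, at 0.98 and 0.95. *Trim25* and *Hist3h2bb-ps* were just inside the EZHIP limit, at -1.003 and -1.012 against control on the log2 scale, and no gene lay just outside it since the table holds only genes with at least a 2-fold difference in EZHIP cells. When the rule was applied to the replicate 1 columns alone, it took 38 genes, and all 38 were also above control in K27M and below it in EZHIP in the replicate 2 columns, with medians of 1.72 and -1.74. The replicate 2 columns alone took 33 genes, with medians of 1.52 and -1.96 in the replicate 1 columns. The 27 genes taken both times were 71.1% of the first set and 81.8% of the second. The table itself had been selected with all EZHIP and control libraries. No gene of the table had overlapping EZHIP and control libraries, so the EZHIP direction could not differ between the replicate columns. K27M and control libraries overlapped for only 8.91% of the table, so the K27M direction could seldom differ either. The libraries of a group may also be technical replicates. The split therefore shows how the rule depends on the columns and is no check of the choice.

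Members lay unevenly along the genome. By mm9 annotation, 9 of the 36 members with a single locus were on chromosome 11 (25%, against 6.94% of the table), namely *Tgtp2*, *Igtp*, *Hist3h2ba*, *Hist3h2bb-ps*, *Bcl6b*, *Slfn8*, *Slfn2*, *Trim25* and *Hap1*. The 50 other table genes on that chromosome had a median log2 difference from control of 0.70 in K27M cells, against 0.49 over all non-members. Their median was also above that of all non-members in EZHIP cells (1.54 against 1.24) and in EED-null cells (0.74 against 0.44). Within 1 Mb of each other, members formed 4 groups. *Gbp5* and *Gbp3* were 37.7 kb apart on chromosome 3, *Slfn8* and *Slfn2* 44.3 kb apart on chromosome 11, and *H2-Q8*, *H2-Q6* and *H2-Q7* stood in a row with gaps of 26.8 and 9.10 kb on chromosome 17, each without another gene of the table between neighbours. *Igtp* lay 741 kb from *Hist3h2ba*, with *Irgm2* between them.

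Markers of other cell types moved in these lines too. None of 32 macrophage and leukocyte markers was in the table, which holds only genes selected on EZHIP. Of 30 epithelial markers 7 were in the table, and their summed value was 426 to 445 in control, 2788 to 2914 in EZHIP, 4390 to 5640 in K27M and 1055 to 1099 in EED-null libraries. Of 20 endothelial markers only *Kdr* was in the table, at 9.24 to 9.60 in control, 51.3 to 52.1 in EZHIP, 157 to 222 in K27M and 10.7 to 11.1 in EED-null libraries. Of 25 fibroblast markers 3 were in the table (*Col3a1*, *Fap* and *Dcn*), with a sum of 17719 to 18112 in control, 6460 to 6934 in EZHIP, 5560 to 5876 in K27M and 5723 to 5805 in EED-null libraries. The sum hides that *Dcn* went the other way in K27M cells, where it was 3.11 above control on the log2 scale. Neural and glial markers (4 of 30 in the table) summed to 95.5 to 99.7 in control, 285 to 304 in EZHIP, 696 to 820.0 in K27M and 797 to 944 in EED-null libraries. Cartilage and bone markers (4 of 22) summed to 597 to 608 in control, 2772 to 2785 in EZHIP, 1348 to 1516 in K27M and 1854 to 1973 in EED-null libraries. Muscle and contractile genes (3 of 77) summed to 509 to 524 in control and to 1037 to 1296 in the other groups. Adipocyte markers (2 of 24) summed to 350.3 to 375 in control, 776 to 786 in EZHIP, 1155 to 1191 in K27M and 361 to 437 in EED-null libraries. The part of these shifts in the members' values was not tested, and fewer cells of a type and less RNA per cell cannot be told apart.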

How the data were processed

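Total RNA of MEFs was depleted of ribosomal RNA and sequenced in 8 libraries. Per the labels and the methods, the authors estimated reads per gene with RSEM 1.2.4 on an mm9 transcriptome, tested them with EBSeq, and listed the genes that differed 2-fold or more between EZHIP and control cells at a posterior probability of at least 0.95. The aligner is not given in the sources used here. Each deposited signal value is an estimated read number after division by the size factor of its library. RNA of another cell line was spiked into each sample, and its use in scaling is not given in the sources used here. Between 72.2% and 82.5% of a library's values were whole reads (tolerance 0.001), so no count model was fitted. The table covers 209390 to 424561 estimated reads per library, and the depth over all genes is not known from it. Replicates of a group differed by more than counting noise (chi-square per gene 1.57 to 4.85).

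Groups and replicate numbers came from the sample titles. EED-null and control were compared on log2(value + 1) with limma 3.58.1 (R 4.3.3), fitted without a filter over all 8 libraries and 875 genes; fold changes on this scale understate those of low genes. EZHIP and K27M cells were fitted against control in the same way, and those calls serve only to describe the interferon list. The rule for members uses the log2 of group means, whereas limma uses means of log2 values, so the figures can differ slightly. Ratios for genes with 10 or fewer reads in a group used pooled reads with an exact conditional 95% interval. Python 3.11.15, pandas 2.3.3, numpy 2.4.6, scipy 1.17.1 and matplotlib 3.10.9 were used. Promoters were taken from RefSeq (GRCm38.p6) and positions from an mm9 annotation; coordinates of the builds were not mixed.

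The members and gene lists were chosen with earlier results of these data known. Named in full were the 8 members with the largest K27M to EZHIP difference, up to 6 called each way in EED-null, those on a list and those within 1 Mb of another member, and the others by their EED-null change. *Cd209c*, *Myh14*, *Gprin3*, *Hr* and *Mpa2l* were also given per library, chosen after their values were seen. The fit was repeated with a pseudocount of 0.1 or 5, on genes averaging 5 or more, without each library in turn, after rescaling by the median of ratios over the table, with a replicate block, on 2 groups alone, with a trend, by the adjusted p alone and for other sets of members.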

Additional observations from a re-analysis of the deposited data

Results flagged for a closer look

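In 10 members, every EED-null library lay above both control libraries while every EZHIP library lay below both (27% of the members; 4.23% of the table). The rule puts EZHIP below control in every member, and among the 380 table genes with EZHIP below control the share was 9.74%. EED-null lay above control in both libraries for 53.7% of the table. The difference between the groups was not tested, because the EZHIP libraries had chosen the members. The EED-null log2 changes were 2.23 in *Auts2*, 1.90 in *Fry*, 1.03 in *Spint1*, 0.95 in *Mfsd6*, 0.47 in *Zfp612*, 0.47 in *Hr*, 0.44 in *Fam184a*, 0.43 in *Hist3h2bb-ps*, 0.40 in *Hist3h2ba* and 0.18 in *Hap1*. Only the first 3 were called higher than control by limma, and none of the 10 was on the interferon list. On libraries rescaled by the median of ratios over the table, only *Auts2* (1.84) and *Fry* (1.51) remained called. The change of *Spint1* was then 0.64 and that of *Mfsd6* 0.56, those of *Zfp612*, *Hr*, *Fam184a*, *Hist3h2bb-ps* and *Hist3h2ba* fell to 0.083, 0.071, 0.046, 0.035 and 0.0049, and that of *Hap1* turned to -0.21. The rescaling moved the table's median EED-null change from 0.40 to 0.0091, so changes near 0.40 had to land near 0. The smaller values therefore do not show that these changes were absent.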

How the results depend on the processing

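The counts of members called in EED-null cells moved most with the choice of members. With each library left out, 15 to 17 members were called lower, 2 to 3 higher, and the median log2 change lay between -0.86 and -0.70. Without dropping symbols, 35 of the 56 genes that met both limits were called lower, with a median of -1.67. Over the 22 members off the interferon list, 5 were called lower (22.7%, against 25.1% of the table) and the median turned to 0.21. These sets differ in size, so their counts cannot be compared directly. Asking only for the adjusted p gave 19 lower and 6 higher. Rescaling by the median of ratios over the table lowered the table's median log2 difference from control by 0.32 for EZHIP, by 0.44 for K27M and by 0.39 for EED-null. It gave 20 members lower, with *Enpp3*, *Trim25*, *H2-Q8* and *Wnt5a* added, 2 higher and a member median of -1.09 in EED-null cells, and 27 genes still met both limits, all of them members. All 37 members kept both directions, with changes of at least 1.32 down in EZHIP and 0.55 up in K27M cells. Across the other choices the rule took 33 to 39 genes. Of 285 refits of single called members, 278 kept the call and 7 lost it, in *Gbp5*, *Gprin3*, *Myh14* and *Spint1*, with no change of direction. Many of these refits could not move the log2 change of a member. Leaving out an EZHIP or K27M library, the replicate block, the trend, the mean filter and the 2 groups alone change only the p-value. Direction was fixed in those refits. With EED-null and control libraries alone *Gbp5* was lost (adjusted p = 0.0731 from limma), and *Spint1* was lost after rescaling (0.64). Among members not called, rescaling turned negative the changes of *Hap1* (-0.21), *Dhrs3* (-0.16), *Mapk13* (-0.04) and *Bcl6b* (-0.30).

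With the replicate block, 16 members were called lower and 3 higher, as without it. Replicate numbers share only a label, since deviations of same-numbered libraries correlated between -0.0893 and 0.105. The read depth limits what can be said of members with a few reads in EZHIP cells.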

Other observations

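Other motifs searched in the same promoters, on both strands, are given here as shares of the members with a promoter. The letters TTCNNNGAA of a STAT site occurred in 5 of 27 members (18.5%), against 7.59% of the genes of the table, and 4 of these 5 were on the interferon list. They did not overlap an ISRE match in any of these promoters. The core letters ACGTG of a hypoxia response element were found in 5 of 27 members (18.5%; 22.5% of the table), *Car9* included, and TATAAA in 7 (25.9%; 14.4% of the table). These are descriptions with no test.

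Of the other gene lists, 1 of 34 cytokines and growth factors in the table was a member (*Wnt5a*), as was 1 of 4 zinc finger genes taken by prefix (*Zfp612*). The list of histocompatibility and Ly6 genes had 7 genes in the table, of which *H2-Q6*, *H2-Q7* and *H2-Q8* were members. No member was among 5 listed p53 targets, 2 Polycomb subunits (*Phf19* and *Pcgf5*), 3 muscle, 4 neural, 2 adipocyte or 4 cartilage and bone markers, or 40 predicted loci.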
